A study of Mus musculus with 1 sample.

Results

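The genes examined here encode 10 heat shock proteins, molecular chaperones that fold other proteins. They were chosen by symbol for the compartment in which their proteins work, from 12816 nuclear genes with at least 1 transcript. Cytosolic chaperones were Hsp90aa1, Hsp90ab1, Hspa4, Hspa8 and Dnaja1. Chaperones of the endoplasmic reticulum (ER) were Hsp90b1 and Hspa5, and those of the mitochondrial matrix were Hspa9, Hspd1 and Hspe1. All 10 had transcripts and passed the minimum of 10 transcripts in both replicates together. They took 17177 of 701976 nuclear transcripts, a share of 2.45% (95% Wilson interval 2.41% to 2.48%), and 4.71% (4.66% to 4.76%) with the reads of near-identical copies described further on. The poly(A) tails of these transcripts were measured by PAIso-seq, which reads full-length cDNA with its tail in repeated passes on the PacBio platform.

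One group was available, wild-type cells of the ICR mouse strain at 24 h of the change from embryonic stem cells to epiblast-like cells (EpiLCs), grown with activin A, bFGF and KSR. It was 1 sample, in which 2 replicates carried different barcodes and were numbered here by barcode. The study calls such replicates independent, but the sources used here do not say whether they came from separate cultures, so their spread may be technical. With a single group there was no contrast to test, and values are given for each replicate, pooled, or as the mean ± SD (n = 2).

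HSP70 proteins bind short greasy stretches of unfolded chains and release them in a cycle driven by ATP. J-domain proteins such as Dnaja1 bring substrates and start ATP hydrolysis, and exchange factors such as Hspa4 free the ADP. HSP90 proteins act later, on partly folded clients such as kinases and steroid receptors, while the chaperonin Hspd1 with its lid Hspe1 encloses whole proteins in mitochondria. The poly(A) tail that ends each of these mRNAs binds poly(A)-binding proteins, and deadenylases such as those of the Ccr4-Not complex shorten it before decay.

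Replicate 2 was the deeper library, with 455660 nuclear transcripts against 246316 in replicate 1. The median nuclear tail was 91 nt in both. Of the 8 markers of formative or shared pluripotency, all had transcripts, from 37 for Fgf5 to 494 for Dnmt3a. The 6 naive markers had from 1 transcript for Klf4 to 501 for Zfp42. Gata4 and Sox17 of primitive endoderm, Col1a1 and Col3a1 of fibroblasts, and T and Mixl1 of mesoderm had 0, while the other 4 markers of primitive endoderm, fibroblasts and neural cells had 1 to 3. A count of 0 allows a share of up to 4.27e-04% of the nuclear transcripts (3 counts). Intervals and such limits cover counting error only, since the reads carry no molecular identifiers.

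The tails themselves show what the values below summarise. A tail of Hsp90aa1 at that gene's median length held A alone, and 6 others of the HSP90 and J-domain genes are shown with every base other than A in capitals, because they carry the kinds of base changes counted further on. The first 3 of these 6 are short tails that end in T, and the last 3 hold a single T, C or G before the last base of a longer tail.
Hsp90aa1, median length: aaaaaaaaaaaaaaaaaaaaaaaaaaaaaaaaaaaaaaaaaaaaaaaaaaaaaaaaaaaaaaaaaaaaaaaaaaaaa
Hsp90ab1, short: aaaaaaaaaaaaaaaT
Hsp90aa1, short: aaaaaaaaaaaaaaaaTT
Dnaja1, short: aaaaaaaaaaaaaaaaaT
Hsp90ab1, inner T: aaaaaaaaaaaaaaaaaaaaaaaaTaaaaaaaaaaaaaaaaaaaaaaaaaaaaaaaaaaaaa
Hsp90ab1, inner C: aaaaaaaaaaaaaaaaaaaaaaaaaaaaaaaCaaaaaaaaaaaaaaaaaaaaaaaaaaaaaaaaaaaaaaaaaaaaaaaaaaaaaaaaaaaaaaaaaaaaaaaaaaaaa
Hsp90ab1, inner G: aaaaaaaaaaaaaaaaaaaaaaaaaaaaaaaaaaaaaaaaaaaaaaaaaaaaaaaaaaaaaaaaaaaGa

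Among the cytosolic chaperones, the 2 HSP90 genes had the most transcripts assigned to them, before any copy was added, and their tails differed. Hsp90ab1 (ENSMUSG00000023944, GRCm38 chromosome 17, 45567775 to 45573271), which encodes the constitutive HSP90, had a geometric mean tail of 84.7 nt over 2138 transcripts of replicate 1 and 87.6 nt over 4321 of replicate 2. Hsp90aa1 (ENSMUSG00000021270, chromosome 12, 110690605 to 110702728), the stress-inducible form, had 71.8 nt over 1019 transcripts and 62.1 nt over 3599. Hsp90ab1 was longer by 12.9 nt and 25.6 nt, or 19.2 nt ± 8.94, which was more than the spread between replicates. With the reads of a near-identical copy of Hsp90aa1 added to it, as described further on, the difference was 4.99 nt and 16.8 nt (10.9 nt ± 8.34). The medians, 99 nt and 77 nt pooled, lay in the same order. Tails over 90 nt made up 56.3% of Hsp90ab1 transcripts (55.1% to 57.5%) and 41.5% of Hsp90aa1 transcripts (40.1% to 42.9%).

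Very short tails of 1 to 5 nt differed between the replicates for Hsp90aa1. Replicate 1 had them at 0.883% (0.465% to 1.67%) and replicate 2 at 4.22% (3.61% to 4.93%), intervals that did not overlap. Over all nuclear transcripts the shares were 1.52% and 2.75%. Among tails of 6 nt or more, the median of Hsp90aa1 was 80.5 nt in one replicate and 79 nt in the other. Hsp90ab1 had very short tails in 0.234% and 0.926% of transcripts, below the nuclear share in each replicate.

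Hspa4 (ENSMUSG00000020361, chromosome 11, 53259814 to 53300457), the HSP110-type exchange factor, had 63.4 nt over 235 transcripts of replicate 1 and 65.2 nt over 588 of replicate 2. Dnaja1 (ENSMUSG00000028410, chromosome 4, 40722150 to 40737149), the J-domain co-chaperone, had 60.5 nt over 130 transcripts and 62.7 nt over 375. Both lay in the lower part of all genes, at percentiles 28.3 and 24.6 of the 7146 nuclear genes with at least 10 transcripts. Tails of 6 to 30 nt made up 13.1% of Hspa4 and 15.8% of Dnaja1 transcripts, against 8.25% of all nuclear transcripts. The annotated 3′ end of Dnaja1 overlaps Smu1, on the other strand, by 608 nt, and Smu1 had 184 transcripts. Whether the authors' gene assignment used strand is not given in the sources used here.

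Hspa8 (ENSMUSG00000015656, chromosome 9, 40800984 to 40810087), the constitutive HSP70 and a very abundant mRNA in most cells, had only 7 transcripts in replicate 1 and 43 in replicate 2. The geometric mean of its tails came to 38.8 nt in replicate 1 (95% interval 8.97 nt to 168 nt) but to 3.19 nt in replicate 2 (2.01 nt to 5.05 nt). Of the 50 tails, 39 had 1 to 5 nt, a share of 78.0% (64.8% to 87.2%), none had 6 to 30 nt, and the median was 2 nt. The methods of the study require 4 A or more in the opening 8 bases of a tail, yet 38 of these tails had fewer than 4 bases in all, as had 281 tails of the 10 genes, and they were kept here. The 11 tails of at least 6 nt had a median of 139 nt. Of all genes tested, 0.126% lay below its pooled value of 4.52 nt.

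**Figure D1:**
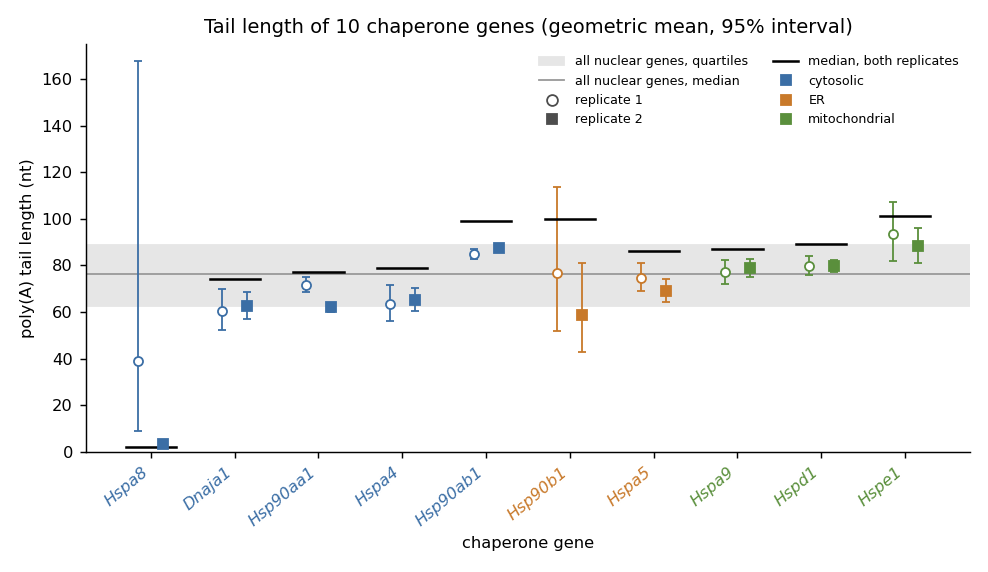
Tail length in nt of the 10 genes, coloured by compartment: open circles are replicate 1 and filled squares replicate 2 (geometric means with 95% intervals for counting error), black lines are pooled medians, and the grey band and line are the quartiles and median over all nuclear genes. The 3 mitochondrial genes lie above the pooled line of 76.4 nt, Hspa9 by the least at 77.0 nt and 78.8 nt, and Hspa8 lies apart at 38.8 nt and 3.19 nt with the widest interval.

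A near-identical copy of Hspa8 held far more reads than the gene. The processed pseudogene Gm15459 (ENSMUSG00000100801, chromosome 5, 5781615 to 5783555, minus strand) matches 1941 nt of the Hspa8 transcript at an identity of 99.7%, and it had 3830 transcripts in replicate 1 and 8003 in replicate 2. Hspa8 thus held 0.182% and 0.534% of the transcripts of the pair. A search of annotated transcripts for copies with at least 95% identity over at least 250 nt found such copies of 5 of the 10 genes. Gm12346 (ENSMUSG00000083899, chromosome 11, 77293444 to 77295898) matches Hsp90aa1 at 99.5% over 2255 nt, and Gm15542 (ENSMUSG00000083396, chromosome 7, 140890887 to 140892080) matches Dnaja1 at 99.4% over 1194 nt. Hsp90aa1 held 48.9% and 58.6% of the transcripts of its pair, and Dnaja1 held 52.8% and 52.7%. Hspd1-ps3, at 99.0% identity to Hspd1, had 10 transcripts, and Hspd1 held 99.6% of that pair in each replicate. The other 10 copies found, among them the only one of Hspe1, had 0 transcripts.

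Reads given to the copies had tails of ordinary length, and few of them were very short. Gm15459 had a geometric mean of 74.5 nt and 75 nt in replicates 1 and 2, and its tails of 1 to 5 nt made up 0.346% (0.256% to 0.470%). Gm12346 had 88.1 nt and 85.4 nt, longer than Hsp90aa1 by 16.4 nt and 23.4 nt (19.9 nt ± 4.96). Gm15542 had 84.1 nt and 80.5 nt, longer than Dnaja1 by 23.6 nt and 17.7 nt (20.7 nt ± 4.16). Each of these differences was larger than the spread between replicates. Very short tails were at 0.166% in Gm12346 against 3.49% in Hsp90aa1, and at 0 of 452 transcripts in Gm15542, which allows a share of up to 0.843% by the Wilson interval, against 1.58% in Dnaja1. Above 5 nt the order of the medians was the same for both, at 95 nt against 79 nt and 89.5 nt against 76 nt. For Hspa8 it was the opposite, at 81 nt in Gm15459 against 139 nt in the 11 Hspa8 tails.

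**Figure D2:**
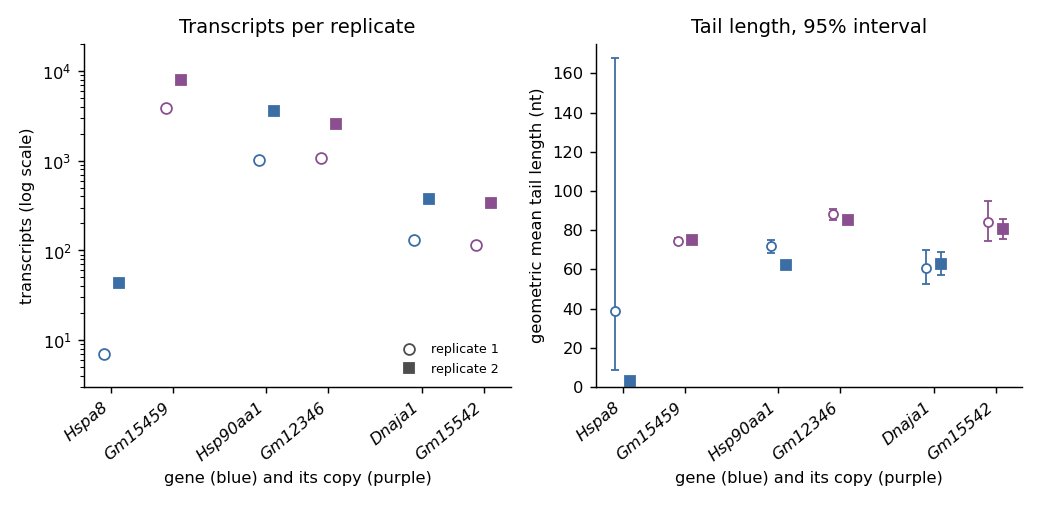
Transcripts per replicate on a log axis (left) and geometric mean tail length in nt with 95% intervals for counting error (right), for Hspa8, Hsp90aa1 and Dnaja1 in blue and their near-identical copies in purple. Gm15459 holds 3830 and 8003 transcripts against 7 and 43 of Hspa8, and both replicates of each copy have a longer geometric mean than their gene.

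The genome differs between gene and copy just beyond the last shared base, and the 30 bases that follow are shown, read along the transcript strand with A in capitals, because tails were called from this side of the alignment. The match of Gm15459 runs to the last of the 2394 bases of the Hspa8 transcript, and 29 of the next 30 bases are A, against 9 at Hspa8 itself. The next 30 bases hold 22 A at Gm12346 and 22 at Gm15542, against 5 at the same place of Hsp90aa1 and 5 of Dnaja1. That place lies inside the longest coding transcript of each gene, after base 2855 of 3281 in Hsp90aa1 and 1582 of 5622 in Dnaja1. Whether reads of gene and copy ended at the same site was not tested. The authors extended tails into A tracts that adjoin the alignment. The part of these tracts, and of the ICR strain against the mm10 reference, in the assignment of reads and in the tail lengths was not tested.
Gm15459, chr5:5781499-5781528, minus strand: AAAAAAAAAAAAAAAAAAAAAAAAAAAAAg
Hspa8, chr9:40805201-40805230, plus strand: tAcAgttgtcctgActgAgttAAAtgtAAg
Gm12346, chr11:77296408-77296437, plus strand: AAAAAAAAAAAAAAAAAAAgAAtgAgttgc
Gm15542, chr7:140892245-140892274, plus strand: AAAAAAAAAAAAAAAAAAAgAAgttcAgtc

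With the reads of each copy added to its gene, the cytosolic genes came closer together. Hspa8 with Gm15459, then the gene with the most transcripts of the 10, had 74.4 nt over 3837 transcripts and 73.7 nt over 8046. Hsp90aa1 with Gm12346 had 79.7 nt and 70.8 nt, and Dnaja1 with Gm15542 had 70.7 nt and 70.6 nt. Hsp90ab1, of which no copy passed the search, stayed the longest of the cytosolic genes in both replicates.

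In the ER, Hspa5 (ENSMUSG00000026864, chromosome 2, 34771970 to 34777547), the HSP70 known as BiP, had 74.8 nt over 260 transcripts of replicate 1 and 69.1 nt over 493 of replicate 2. Hsp90b1 (ENSMUSG00000020048, chromosome 10, 86690209 to 86705509), the HSP90 known as Grp94, had 76.8 nt over 32 transcripts and 58.9 nt over 74. The difference Hsp90b1 minus Hspa5 was 2.04 nt and -10.2 nt, so its sign was not the same in the replicates. By the median, Hsp90b1 was the longer in both, at 105.5 nt against 86.5 nt and at 97 nt against 86 nt. Hsp90b1 combined long tails with very short ones. Of its 106 tails, 60.4% were over 90 nt (50.9% to 69.2%), the highest share of the 10 genes though with an interval that overlapped that of Hsp90ab1, and 11 had 1 to 5 nt, or 10.4% (5.89% to 17.6%). Hspa5 had the opposite pattern, with 0.398% of tails of 1 to 5 nt and 15.4% of 6 to 30 nt.

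The mitochondrial chaperones had tails near or above the median of all genes, 78.0 nt in replicate 1 and 76.8 nt in replicate 2. Hspa9 (ENSMUSG00000024359, chromosome 18, 34937414 to 34954357), the matrix HSP70 known as mortalin, had 77.0 nt over 357 transcripts of replicate 1 and 78.8 nt over 851 of replicate 2. Hspd1 (ENSMUSG00000025980, chromosome 1, 55077835 to 55088243), the HSP60 chaperonin, had 80.0 nt over 685 transcripts and 79.7 nt over 1697. Hspe1 (ENSMUSG00000073676, chromosome 1, 55088132 to 55091307), the HSP10 lid, had 93.7 nt over 76 transcripts and 88.4 nt over 197. Hspd1 and Hspe1 lay above the median of each replicate, and Hspa9 lay below that of replicate 1.

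Hspd1 and Hspe1 lie head to head on opposite strands, and their annotated 5′ ends overlap by 112 nt. Their proteins form one folding machine. The tail of Hspe1 was longer than that of Hspd1 by 13.7 nt and 8.69 nt, or 11.2 nt ± 3.56, more than the spread between replicates. The intervals of the 2 genes lay apart pooled but overlapped within each replicate. The medians were 101 nt and 89 nt pooled. Tails over 150 nt made up 24.9% of Hspe1 transcripts (20.2% to 30.4%) against 14.9% of Hspd1 transcripts (13.6% to 16.4%). For this share the intervals overlapped in replicate 1 and lay apart in replicate 2. Hspe1 had no tail of 1 to 5 nt among 273, which allows a share of up to 1.39% by the Wilson interval. Hspd1 and Hspa9 differed by 2.93 nt and 0.925 nt, and their pooled intervals overlapped.

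**Figure D3:**
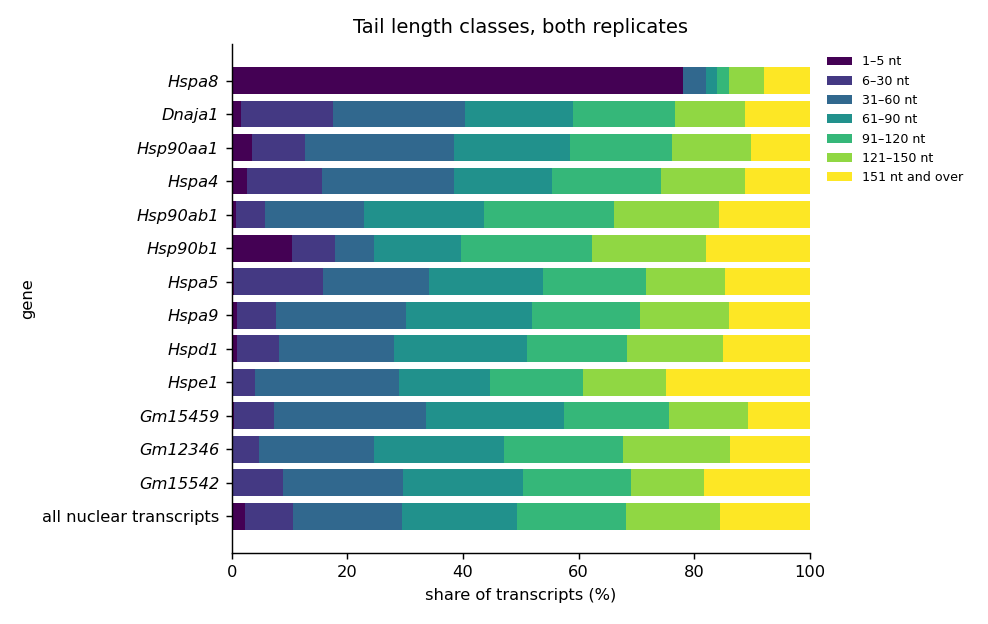
Share of transcripts in 7 classes of tail length, both replicates pooled, for each of the 10 genes, the 3 copies with most reads and all nuclear transcripts. The class of 1 to 5 nt takes 78.0% of Hspa8 and 10.4% of Hsp90b1 transcripts but 2.32% of all, and the class over 150 nt is widest in Hspe1, at 24.9%.

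In order of the pooled geometric mean, the 10 genes ran from Hspa8 (4.52 nt) through Dnaja1 (62.2 nt), Hsp90b1 (63.8 nt), Hsp90aa1 (64.1 nt), Hspa4 (64.7 nt), Hspa5 (71.0 nt), Hspa9 (78.3 nt), Hspd1 (79.8 nt) and Hsp90ab1 (86.6 nt) to Hspe1 (89.8 nt). Of the 9 pairs of neighbours, 3 had the same order in both replicates and pooled intervals that did not overlap. These were Hspa8 and Dnaja1, Hspa5 and Hspa9, and Hspd1 and Hsp90ab1. Taken by replicate, the intervals of all 3 pairs overlapped in replicate 1 and lay apart in replicate 2. The first of these orders turned over with the copies added, to 74.0 nt for Hspa8 and 70.6 nt for Dnaja1, and among tails of 6 nt or more, to 116 nt and 66.4 nt. The order from Dnaja1 to Hspa4 changed between the replicates and cannot be read as a ranking.

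The compartments were then compared, each as the geometric mean over its genes. Mitochondrial genes had 83.2 nt in replicate 1 and 82.2 nt in replicate 2. ER genes had 75.8 nt and 63.8 nt, and cytosolic genes 61.9 nt and 37.2 nt. The mitochondrial value exceeded the cytosolic one by 21.4 nt and 45.0 nt (33.2 nt ± 16.7). Much of its size rested on Hspa8. Without that gene, a choice made after its values were seen, the difference was 13.7 nt and 13.5 nt (13.6 nt ± 0.145), and with the reads of the copies added to their genes it was 9.08 nt and 8.95 nt (9.02 nt ± 0.0862). Dropping tails under 6 nt, with all genes kept, gave 3.996 nt and 2.44 nt (3.22 nt ± 1.10). In each of these 4 settings it was positive in both replicates and larger than their SD. By the median per gene it was 6.45 nt and 52.4 nt, and their SD of 32.5 nt exceeded the mean.

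Whether the ER genes lay above or below the cytosolic genes depended on how Hspa8 and the copies were treated. The difference was 13.9 nt and 26.6 nt with all genes, 6.29 nt and -4.90 nt without Hspa8, and 1.57 nt and -9.46 nt with the copies added. The mitochondrial value exceeded that of the ER by 7.44 nt and 18.4 nt (12.9 nt ± 7.77). This last difference was -3.38 nt and 0.535 nt by the median per gene, or -2.10 nt and 3.25 nt once tails under 6 nt were dropped, so its direction depended on the summary. Genes within a compartment are not replicates of it, and these values describe the 10 genes alone.

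Gene tails over 75 nt, the boundary that the study used between short and long, were found for 4 of 10 chaperone genes, Hsp90ab1, Hspa9, Hspd1 and Hspe1. Of all 7146 nuclear genes tested, 52.6% were over it. The same 4 genes were over 75 nt in both replicates, among 9 with at least 10 transcripts in each, against 41.2% of 4286 such genes. The median over the 10 genes was 67.8 nt. The chaperones as a group were therefore close to the background in this count. By the median per gene, 8 of 10 were over 75 nt, against 74.9% of all genes tested, and by the arithmetic mean 9 of 10 were, against 87.5%.

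Other folding genes of the same compartments were listed by their roles, 53 in all, and 44 had at least 10 transcripts. Of these, 27 (61.4%) had a tail over 75 nt, and their median was 80.3 nt, against 76.4 nt for all genes. In the cytosol 14 of 19 were over 75 nt, with a median of 85.0 nt, and the 5 cytosolic chaperones examined here had a median of 64.1 nt. That median leaves out the reads of copies. With them added, Hspa8, Hsp90aa1 and Dnaja1 had 74.0 nt, 73.0 nt and 70.6 nt pooled. Copies of the partners were not searched for. Cdc37, which brings kinases to HSP90, had the longest pooled tail among those with at least 30 transcripts (98.7 nt and 101 nt in the replicates), and Dnaja2, a relative of Dnaja1, had the shortest (63.9 nt and 65.6 nt). Neither led in every replicate, since other partners passed Cdc37 in both replicates and Dnajc2, at 64.5 nt, lay below Dnaja2 in replicate 2. In the ER 8 of 17 were over 75 nt, with a median of 74.6 nt. By the pooled value Pdia4, a disulfide isomerase, was the longest and Dnajc10, a J-domain reductase, the shortest of those with at least 30 transcripts. Pdia4 had 78.0 nt and 108 nt, and Dnajc10 had 45.1 nt and 71.4 nt, the widest spreads among the partners named. Among mitochondrial partners 5 of 8 were over 75 nt, with a median of 80.0 nt. The pooled values with at least 30 transcripts ran from Clpx, a subunit of the ClpXP protease (69.5 nt and 64.8 nt), to Dnajc19, a J-domain protein of the import motor (93.2 nt and 100.0 nt), and neither was the extreme in both replicates. The stress-inducible HSP70 genes Hspa1a and Hspa1b had 0 transcripts assigned to them. Whether any of their reads were assigned elsewhere or lost in mapping was not tested.

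**Figure D4:**
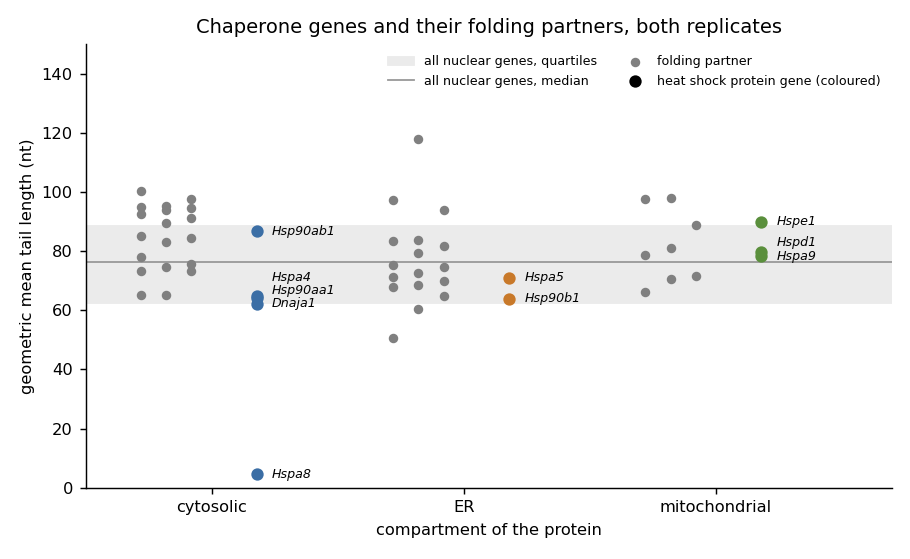
Geometric mean tail length in nt, both replicates pooled, of the folding partners with at least 10 transcripts (grey) and of the 10 heat shock protein genes (coloured) in each compartment, with the quartiles and median of all nuclear genes as a grey band and line. Of the cytosolic genes only Hsp90ab1, at 86.6 nt, lies above the line, whereas all 3 mitochondrial genes do.

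Bases other than A are the second readout of the assay and were not used to choose the genes. Over the 10 genes they occurred in 15.4% of tails in replicate 1 and 11.5% in replicate 2, against 12.2% and 9.55% of all nuclear tails. Reads of the copies were not counted in these shares. With them added, Hspa8 had 0.766% pooled and Dnaja1 7.84%, below the 10.5% of all nuclear tails. Hsp90aa1 then had 12.6% (11.9% to 13.3%), still above that nuclear share, and Hspd1 had 11.5% (10.3% to 12.9%), an interval that held it. The shares over the 10 genes together thus describe only reads assigned to the genes themselves. The 2 cytosolic HSP90 genes gave 11077 of the 17177 tails, and the other 8 genes had 13.5% (12.0% to 15.1%) and 9.31% (8.48% to 10.2%), intervals that held the nuclear share. The share was higher in replicate 1 in each of the 10 genes. Hsp90ab1 had 16.9% (15.4% to 18.5%) and 13.7% (12.7% to 14.7%), above the nuclear share in both replicates, and its T, C and G were present in 8.84%, 4.23% and 3.51% of tails pooled. Hsp90aa1 had 15.5% and 11.7%, also above it in both. Hspd1, with 15.2% and 10.1%, and Hspa5, with 13.8% and 10.8%, were above it in both too. The interval of Hspd1 held the nuclear share in replicate 2, and that of Hspa5 held it in both replicates (10.2% to 18.6% in replicate 1). Hspe1, with the longest tails, had 10.5% (5.43% to 19.4%) and 5.58% (3.15% to 9.72%). Per 1000 tail bases, which takes length into account, the pooled values were 2.05 for Hsp90ab1, 2.01 for Hsp90aa1 and 0.866 for Hspe1, against 1.54 over all nuclear tails. Dnaja1 (1.86), Hspa5 (1.86) and Hspd1 (1.85) also lay above the nuclear value, and Hspa4, Hsp90b1 and Hspa9 lay below it. Hspa8 had 1.91, but all of it came from 1 tail of replicate 1, with 4.34 there and 0 in replicate 2.

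Among the copies, the pooled share of Gm15542 differed from that of its gene beyond the intervals. Gm15459 had a base other than A in 0.761% of 11833 tails (0.619% to 0.934%), with 1.25% and 0.525% in the replicates, far below the nuclear share. Hspa8 had 1 such tail among 50, which at this depth gave an interval of 0.354% to 10.5%. Gm15542 had 4.87% (3.24% to 7.26%) against 10.5% of Dnaja1 (8.11% to 13.5%). Its share was also the lower within each replicate, but there the intervals overlapped. Gm12346, with 12.7% (11.7% to 13.8%), was not distinguishable from Hsp90aa1 with 12.5% (11.6% to 13.5%).

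**Figure D5:**
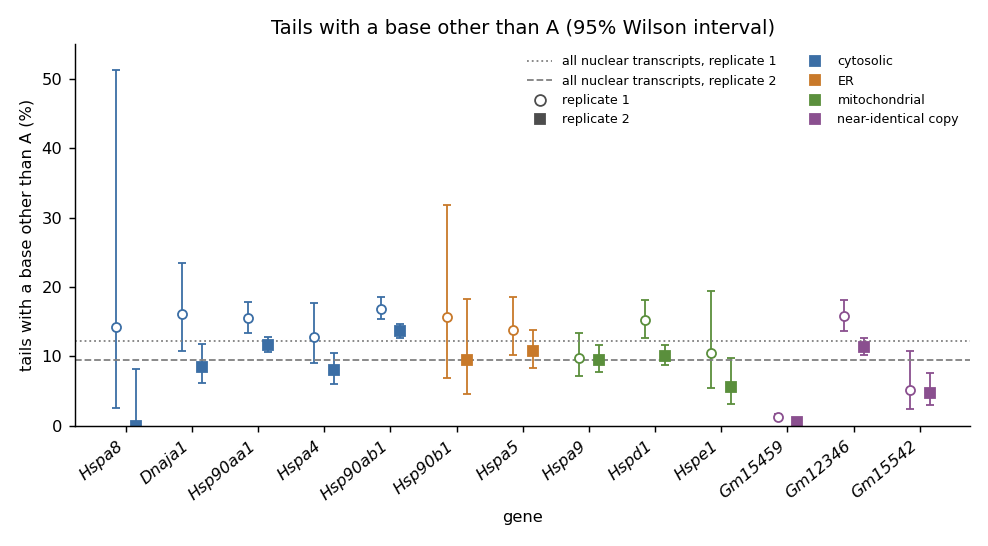
Percent of tails with at least 1 base other than A in each replicate (open circles replicate 1, filled squares replicate 2) with 95% Wilson intervals, for the 10 genes by compartment and 3 near-identical copies, with dotted and dashed lines for all nuclear transcripts at 12.2% and 9.55%. Hsp90ab1, Hsp90aa1, Hspd1 and Hspa5 lie above the line of their replicate in both, and Gm15459 lies near 0 at 1.25% and 0.525%.

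A T as the last base was most frequent in short tails. Among chaperone tails of 6 to 30 nt it stood last in 21.2% (17.6% to 25.4%) in replicate 1 and 10.95% (9.09% to 13.1%) in replicate 2. In tails of 61 to 90 nt it did so in 2.15% and 1.92%. All nuclear tails had 18.3% and 13.4% in the shorter class and 2.60% and 1.70% in the longer, so the chaperones followed the pattern of the whole library. In tails of 1 to 5 nt, 2 of 318 chaperone tails ended in T. Among single genes, the pooled share in tails of 6 to 30 nt was 20.1% for Hspd1 (14.8% to 26.7%), 15.5% for Hsp90ab1 (12.0% to 19.8%) and 4.63% for Hspa4 (1.99% to 10.4%). The pooled intervals of Hspd1 and Hspa4 did not overlap. They cover counting error only, and the spread of single genes between replicates was not examined for this share.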

How the data were processed

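PAIso-seq reads of 1 wild-type sample were analysed. The authors made consensus reads, split them by barcode, trimmed adapters, mapped them to mm10 with minimap2 2.17, removed repetitive reads, took the soft-clipped 3′ end as the tail, extended it into adjoining A tracts, dropped reads without a tail and assigned genes with featureCounts 2.0.1 (versions per the labels). Their methods require 4 A or more in the opening 8 bases, but shorter tails are in the table and were kept. Their deposited table gives passes, base counts and sequence of each tail, with no normalization.

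Tail length was A plus non-A bases in reads with at least 7 passes, per gene as the geometric mean. Symbols came from GENCODE vM21 (12955 of 12962 identifiers found). Copies were found with blastn 2.17.0, at an identity of at least 95% over at least 250 nt. Shares have 95% Wilson intervals, and geometric means have 95% normal intervals on the log scale. Scripts used pandas 2.3.3 with numpy 2.4.6, and scipy 1.17.1, under Python 3.11.15. Only the geometric mean and its interval were tested on simulated data. The simulated tails had normal log lengths, without a separate class of very short tails. The genes and lists were chosen with earlier results of these data known. Named genes were the 10 chaperones, the folding partners with the longest and shortest tail per compartment (at least 30 transcripts), and pseudogenes named after a chaperone (at least 10). The 3 other copies, Hspa1a, Hspa1b and Smu1 were named after their values were seen. Alternatives changed passes, summary, shortest tail, replicates, wells, pooling and background. Leaving out Hspa8 and adding copies were chosen after seeing the data.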

Additional observations from a re-analysis of the deposited data

Results flagged for a closer look

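Reads with fewer than 7 passes were left out of the comparisons. They made up 8.61% of all reads of the 10 genes (8.22% to 9.02%), or 1619 of 18796, with 466 in replicate 1 and 1153 in replicate 2, above the 0.0160% that a count of 0 allows. Their median tail was 91 nt, against 89 nt in the reads used. With a single group there was no other signal to set against a control.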

How the results depend on the processing

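No paired analysis was possible because only 1 group exists. Each value was judged by the SD between replicates, and 46 of 72 alternative values of the differences, the counts and the medians over genes moved by less than it. The median over the 10 genes, 67.8 nt, was 86.5 nt by the median per gene, 91.2 nt by the arithmetic mean, 81.7 nt with tails of at least 6 nt and 82.3 nt with at least 15 nt. The count over 75 nt, 4 of 10, was 8 by the median and 9 by the arithmetic mean, where the shares of all genes were 74.9% and 87.5%, and 6 with either limit on the shortest tail. Mitochondrial minus cytosolic, 42.6 nt, was 2.83 nt with tails of at least 6 nt, 1.90 nt with at least 15 nt, 5.88 nt with transcripts pooled, 13.7 nt without Hspa8 and 9.05 nt with copies added. ER minus cytosolic, 27.4 nt, was 53.8 nt by the median, 1.33 nt and 3.29 nt with those shortest tails, and reversed to -4.04 nt with transcripts pooled, -1.44 nt without Hspa8 and -6.14 nt with copies added. Single replicates gave 67.1 nt to 75.8 nt for the median, 21.4 nt to 45.0 nt and 13.9 nt to 26.6 nt for the differences, and as medians over the genes 47.2% to 48.5% for tails over 90 nt, 0.531% to 1.46% for tails of 1 to 5 nt and 9.49% to 14.7% for tails with a base other than A. The arithmetic mean weighs very short tails less by construction, and the shortest-tail limits remove them. The median weighs them less only where they are a minority. Of the Hspa8 tails they were 39 of 50, and its median of 2 nt lay below its geometric mean of 4.52 nt. The cause of the shifts was not tested. Of all genes with at least 30 transcripts, 53.8% were over 75 nt. Few transcripts limit Hspa8 and Hsp90b1 most.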
